A study of Homo sapiens with 12 samples.

Results

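The FOXO transcription factors FOXO1, FOXO3 and FOXO4 and 7 genes linked to them or to cell-cycle exit were followed in CUTLL1. This human line was derived from T-cell acute lymphoblastic leukaemia and carries a rearranged, active NOTCH1. The 7 other genes are PIK3IP1, CCNG2, BTG1, BTG2, SESN3, TXNIP and KLF2. They were listed by name, with no measured value in the rule but with earlier results of these data known, and each matched 1 of the 62069 Ensembl identifiers in the deposited table. Of the 10, 9 passed the filter on low values (3 or more libraries at 10 or above, which kept 19281 genes), and TXNIP did not.

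The 12 poly-A RNA-seq libraries fall into 4 groups of 3, which were compared. Cells had been given Compound E at 1 µM. This gamma-secretase inhibitor (GSI) blocks the cleavage releasing active NOTCH1, and the cells were harvested after 12 h (GSI 12 h) or 48 h (GSI 48 h). Their controls had the solvent DMSO and were harvested at the same times (DMSO 12 h and DMSO 48 h). All 12 libraries come from 1 cell line, in which gamma-secretase has other substrates than NOTCH1, and nothing says whether libraries of a group came from separate cultures, so that p-values measure only the spread between these libraries.

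FOXO factors are held in check by growth signals. The kinase PI3K activates AKT, AKT phosphorylates the FOXO proteins, and 14-3-3 proteins then keep them in the cytoplasm; when the signal falls, FOXO proteins enter the nucleus and switch on genes of cell-cycle exit, stress resistance and, in lymphocytes, quiescence and homing. Because this control acts on the protein, the level of a FOXO transcript does not report how active the factor is. In T-cell leukaemia, NOTCH1 signalling is known to promote growth and PI3K–AKT signalling.

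Promoter windows of 5 of the genes are shown. The counts below differ most between groups for PIK3IP1, CCNG2 and BTG2. The windows of FOXO4 and BTG1 hold the same FOXO motif as the PIK3IP1 window shown, which was chosen over another PIK3IP1 window without that motif. Each window runs from 250 bases before to 50 bases after a RefSeq transcription start on GRCh38.p14, a later build than the hg19 used for the counts. Capitals mark matches, on either strand, to 3 short motifs. The FOXO consensus is GTAAACA, which reads TGTTTAC on the opposite strand. The motif TGGGAA, which reads TTCCCA on the opposite strand, lies within the consensus of RBPJ, the DNA-binding partner of NOTCH1. The core of the hypoxia response element is ACGTG, which reads CACGT on the opposite strand.
PIK3IP1 (chr22:31292439-31292738, minus strand): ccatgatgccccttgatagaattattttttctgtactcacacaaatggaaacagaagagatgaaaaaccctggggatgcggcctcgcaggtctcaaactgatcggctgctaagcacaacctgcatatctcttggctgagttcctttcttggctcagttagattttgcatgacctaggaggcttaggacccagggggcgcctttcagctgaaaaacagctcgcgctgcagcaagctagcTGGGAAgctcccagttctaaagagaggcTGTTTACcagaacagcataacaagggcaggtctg
CCNG2 (chr4:77156957-77157256, plus strand): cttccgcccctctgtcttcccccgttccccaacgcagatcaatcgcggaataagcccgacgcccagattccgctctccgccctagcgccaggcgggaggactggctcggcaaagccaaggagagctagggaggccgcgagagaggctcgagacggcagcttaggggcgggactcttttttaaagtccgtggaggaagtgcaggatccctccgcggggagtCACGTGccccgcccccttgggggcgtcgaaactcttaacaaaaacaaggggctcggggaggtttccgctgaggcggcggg
BTG2 (chr1:203305269-203305568, plus strand): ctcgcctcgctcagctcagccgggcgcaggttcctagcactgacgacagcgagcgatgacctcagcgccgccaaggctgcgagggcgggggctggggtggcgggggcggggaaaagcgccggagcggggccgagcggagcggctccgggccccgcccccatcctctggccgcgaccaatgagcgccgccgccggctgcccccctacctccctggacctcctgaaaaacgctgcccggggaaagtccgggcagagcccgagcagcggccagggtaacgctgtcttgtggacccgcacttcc
FOXO4 (chrX:71095601-71095900, plus strand): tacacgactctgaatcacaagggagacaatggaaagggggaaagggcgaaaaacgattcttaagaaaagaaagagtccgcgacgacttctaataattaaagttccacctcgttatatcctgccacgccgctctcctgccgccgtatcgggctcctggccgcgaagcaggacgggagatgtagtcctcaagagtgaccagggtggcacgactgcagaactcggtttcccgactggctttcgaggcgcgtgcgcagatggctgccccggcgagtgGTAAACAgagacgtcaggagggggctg
BTG1 (chr12:92145797-92146096, minus strand): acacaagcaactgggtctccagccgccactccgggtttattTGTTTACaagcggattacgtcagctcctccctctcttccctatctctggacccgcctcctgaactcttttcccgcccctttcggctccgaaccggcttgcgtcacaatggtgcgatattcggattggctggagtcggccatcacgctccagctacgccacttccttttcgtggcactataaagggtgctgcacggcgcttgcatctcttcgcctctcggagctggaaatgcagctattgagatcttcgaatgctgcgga

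In the PIK3IP1 window shown the FOXO motif begins 16 bases after the start and TGGGAA 12 bases before it. The other PIK3IP1 window (chr22:31292485-31292784) holds no FOXO motif. In it TTCCCA begins 214 bases before its start and TGGGAA 34 bases after. The CCNG2 window holds the palindrome CACGTG, which matches ACGTG on both strands and is also an E-box, a motif bound by MYC and related factors. No letters of the 3 motifs occur in the BTG2 window, which says nothing about the factors. All 10 genes matched a RefSeq promoter, with 15 windows in all. The FOXO motif lay in 4 of the 15 windows and in 3.42% of the 35116 human windows. These windows belong to 4 of the 10 genes (BTG1, FOXO4, PIK3IP1 and TXNIP). TGGGAA lay in 4 of the 15 windows (FOXO3, PIK3IP1 and TXNIP) and in 24.0% of all windows. ACGTG lay in 4 of the 15 (CCNG2, FOXO3 and TXNIP) and in 21.4% of all. The E-box CACGTG, whose letters contain ACGTG, lay in 1 of the 15 windows, that of CCNG2, and in 7.26% of all windows. GC content was 49.7% in the PIK3IP1 window shown, 64.7% for CCNG2 and 73.3% for BTG2, beside a median of 58.7% over all windows. These matches are descriptions of sequence, and no binding was measured.

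Values are read counts scaled by each library's size factor (normalised counts), and the libraries held between 73939612 and 160702764 reads in genes. Of the T-cell markers, 12 of the 13 with a row were above 10 in every library, CD3D ranging between 58190 and 115361, while TRBC1 stayed under 10. Of 5 B-cell markers, only CD79A was above 10 (between 659 and 3042), with MS4A1 at 0; summed B-cell markers were 850 to 1097 in GSI 12 h against 662 to 2515 in DMSO 12 h libraries, and 851 to 936 in GSI 48 h against 808 to 3044 in DMSO 48 h libraries. Of the 16 NOTCH1 target genes on a list used to check the labels, 7 were lower with GSI at 12 h and 3 at 48 h, but 12 were lower at 48 h than at 12 h among GSI libraries and 11 among DMSO libraries. More NOTCH1 targets thus differed between the labels of time than between those of treatment, and groups below are groups as labelled. Of 15 genes of the hypoxia response, 14 were higher with GSI at 12 h and 10 at 48 h. The median log2 level of that list, relative to the mean of all libraries, was 2.07, 0.35 and 2.42 in GSI 12 h libraries 1, 2 and 3 against -1.07, -1.22 and -1.09 in DMSO 12 h libraries, and 1.42, -0.16 and 0.72 in GSI 48 h against -1.15, -1.34 and -1.003 in DMSO 48 h libraries. Both GSI libraries numbered 2 thus stood apart from their group, and results are given with and without them where that changes a call. The part of this difference in any result below was not tested.

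With GSI, PIK3IP1, CCNG2 and BTG2 were higher than with DMSO at both times and SESN3 at 12 h, while none of the 9 genes passed as lower. At 12 h, 4 of the 9 genes passed the test (limma, adjusted p under 0.05 over all genes) in the higher direction, where 10.1% of all genes did, 11.4% being lower and 21.5% passing in either direction. At 48 h, 3 of the 9 passed as higher, against 4.33% of all genes as higher, 5.35% as lower and 9.68% in either direction. With the replicate number as a block, which takes the numbers as pairs at 48 h, the same number passed as higher, against 11.8% of all genes. All 9 fold changes were above 0 at each time, although that of FOXO1 turned below 0 without 1 library at 12 h and without 1 of 2 libraries at 48 h. Their median log2 fold change was 0.46 at 12 h and 0.39 at 48 h, beside 0.00064 and -0.0039 over all genes. Of the 9, 4 at 12 h and 5 at 48 h had all GSI libraries above all DMSO libraries, which held for 17.1% and 16.9% of all genes. Over all genes, 1943 were higher and 2201 lower at 12 h, and 834 higher and 1032 lower at 48 h. After upper-quartile scaling the split was 1441 higher and 3704 lower at 12 h and 741 higher and 1794 lower at 48 h. Relative levels of single genes can change because every cell changes or because the mix of cell states changes, and bulk libraries cannot tell fewer cells of a type from less RNA per cell.

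**Figure D1:**
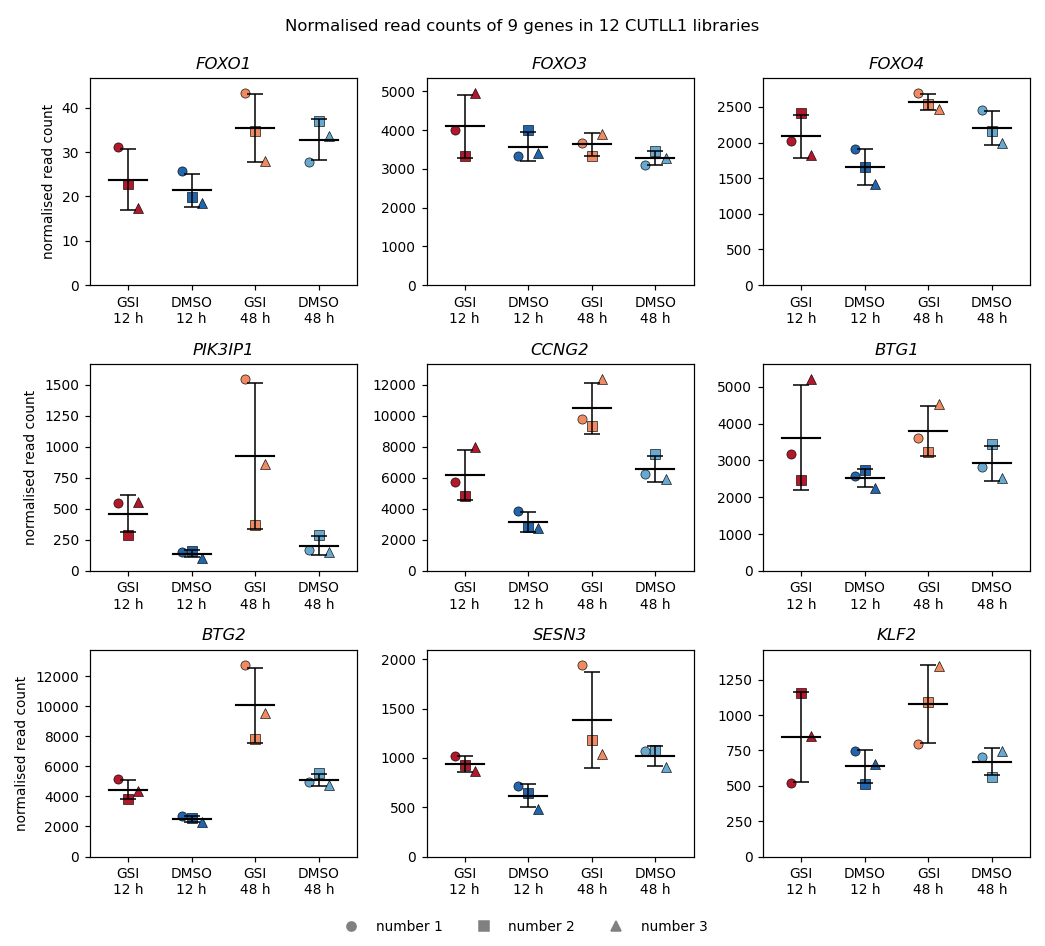
Normalised read counts (vertical axes, linear, starting at 0) of the 9 genes that passed the filter, in the 4 groups; each point is 1 library with its shape giving the library number, horizontal lines are means and bars ±1 SD (n = 3). GSI 48 h libraries stand highest for CCNG2 and BTG2, and PIK3IP1 has 1545 in 1 GSI 48 h library against 289 at most in DMSO libraries of that time.

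Among the FOXO factors, none of the 3 passed the test with GSI at either time. FOXO1, the main family member in normal T cells and required for their homing and survival in mice, was close to silent. It had 31.1, 22.8 and 17.5 normalised counts in GSI 12 h libraries against 25.7, 20.0 and 18.6 in DMSO 12 h libraries, and 43.3, 34.9 and 27.9 in GSI 48 h against 27.8, 37.0 and 33.7 in DMSO 48 h libraries. The groups overlapped at both times. These values rest on 13 to 57 reads per library, and the log2 fold change was 0.12 ± 0.28 (SE; adjusted p = 0.788) at 12 h and 0.09 ± 0.28 (adjusted p = 0.856) at 48 h, with 95% intervals of -0.49 to 0.73 and -0.52 to 0.70. These intervals leave room for a difference in either direction.

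FOXO3, which in other cells drives genes of apoptosis, autophagy and quiescence, was abundant. It had 4005, 3330.4 and 4948 normalised counts in GSI 12 h libraries against 3319, 3994 and 3407 in DMSO 12 h libraries. At 48 h it had 3662, 3329 and 3909 with GSI against 3103, 3458 and 3280.4 with DMSO. The groups overlapped at both times, and the log2 fold change was 0.18 ± 0.13 (adjusted p = 0.334) at 12 h and 0.15 ± 0.13 (adjusted p = 0.477) at 48 h. The 95% intervals, -0.10 to 0.46 and -0.14 to 0.43, leave room for a moderate difference.

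FOXO4, the X-linked family member, had 2028, 2409 and 1823 normalised counts in GSI 12 h libraries against 1912, 1657 and 1411 in DMSO 12 h libraries. At 48 h it had 2689.6, 2541 and 2466 with GSI against 2451, 2167 and 1986 with DMSO. Every GSI library exceeded every DMSO library at 48 h by a narrow margin, while the groups overlapped at 12 h. Neither difference passed, with log2 fold changes of 0.33 ± 0.13 (adjusted p = 0.0876) and 0.22 ± 0.13 (adjusted p = 0.270).

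Per kilobase of exon, FOXO4 and FOXO3 were the main FOXO transcripts and FOXO1 the least. In GSI 12 h libraries the normalised count per kilobase was 605 ± 86.3 for FOXO4, 530 ± 105 for FOXO3 and 3.82 ± 1.10 for FOXO1 (SD, n = 3 each). In DMSO 12 h libraries it was 482 ± 72.6 for FOXO4, 463 ± 47.6 for FOXO3 and 3.43 ± 0.60 for FOXO1. FOXO6, a relative known mainly from brain, lay between them at 178 ± 9.20 in GSI 12 h against 93.7 ± 3.36 in DMSO 12 h libraries and 161 ± 10.1 in GSI 48 h against 117 ± 13.0 in DMSO 48 h libraries. FOXO6, listed among relatives of the 10 genes, was the family member whose transcript rose with GSI, by a log2 fold change of 0.92 (adjusted p = 0.00196) at 12 h and 0.47 (adjusted p = 0.0410) at 48 h. FOXO3B, a near-identical copy of FOXO3, had between 329 and 540 normalised counts, so that reads could have been split between it and FOXO3 and the FOXO3 values carry that uncertainty.

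PIK3IP1 had the largest rise of the 9 genes. It encodes a membrane protein that binds the catalytic subunit of PI3K and lowers its activity, upstream of AKT and FOXO. It had 543, 287 and 552 normalised counts in GSI 12 h libraries against 149, 162 and 104 in DMSO 12 h libraries. After 48 h the counts were 1545, 367 and 862 with GSI against 165, 289 and 150.4 with DMSO. Every GSI library was above every DMSO library of its time, with the GSI library numbered 2 the lowest of its group each time. The log2 fold change was 1.69 ± 0.43 (adjusted p = 0.0168), or 3.23-fold, at 12 h and 2.03 ± 0.43 (adjusted p = 0.0197), or 4.07-fold, at 48 h. Without both GSI libraries numbered 2, the log2 fold changes were 2.003 (adjusted p = 0.00133) and 2.57 (adjusted p = 0.000847). The call at 12 h was lost without DMSO library 3 (adjusted p = 0.0516), GSI library 1 (adjusted p = 0.0723) or GSI library 3 (adjusted p = 0.0602) of that time. At 48 h it was lost without DMSO library 1 (0.0648) or 3 (0.0513) or GSI library 1 (0.0909) or 3 (0.0847), the values being adjusted p. With a constant prior in limma the 48 h call was lost too (adjusted p = 0.0525). Both calls thus depend on which libraries enter, and that at 48 h also on the prior, although the direction held in each of these fits. The divergent transcript PIK3IP1-DT, whose reads could be mixed with those of PIK3IP1 if counting ignored strand, had 39.2 to 81.5 normalised counts.

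CCNG2 encodes cyclin G2, an unusual cyclin that is most abundant in cells leaving the cycle and is a classical FOXO target. It had 5724, 4835 and 7985 normalised counts in GSI 12 h libraries against 3881, 2854 and 2733 in DMSO 12 h libraries. By 48 h its level was 9768, 9349.7 and 12370.4 with GSI against 6246, 7551 and 5908 with DMSO. The groups did not overlap at either time, and the GSI library numbered 2 was the lowest of its group each time. The log2 fold change was 0.96 ± 0.18 (adjusted p = 0.00535) at 12 h and 0.67 ± 0.18 (adjusted p = 0.0389) at 48 h. The 12 h call held without each of the 12 libraries in turn. That at 48 h was lost, at adjusted p between 0.0513 and 0.158, without GSI 12 h library 1, any DMSO 48 h library, or GSI 48 h library 1 or 3. It was also lost in limma with no filter (adjusted p = 0.0579) and with a constant prior (adjusted p = 0.0848).

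BTG2 and BTG1 encode antiproliferative proteins that recruit the CCR4–NOT deadenylase, which shortens mRNA tails, and both are known to keep naive mouse T cells quiescent. BTG2 had 5134, 3850.5 and 4373 normalised counts in GSI 12 h libraries against 2678, 2544 and 2265 in DMSO 12 h libraries. Values at 48 h were 12745, 7843 and 9572 with GSI against 4975, 5545 and 4757 with DMSO. No GSI library overlapped the DMSO libraries of its time, and the GSI library numbered 2 was again the lowest of its group each time. The log2 fold change was 0.83 ± 0.16 (adjusted p = 0.00492) at 12 h and 0.96 ± 0.16 (adjusted p = 0.00749) at 48 h, and BTG2 passed at both times without each of the 12 libraries in turn.

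BTG1 did not pass with GSI at either time. It had 3188, 2467 and 5213 normalised counts in GSI 12 h libraries against 2584, 2729 and 2245 in DMSO 12 h libraries. In the 48 h groups the counts were 3609, 3239 and 4547 with GSI against 2815, 3450.5 and 2514 with DMSO. GSI library 2 lay within the DMSO range at both times, while GSI library 3 was the highest. The log2 fold change was 0.46 ± 0.22 (adjusted p = 0.152) at 12 h and 0.37 ± 0.22 (adjusted p = 0.274) at 48 h. Without GSI 12 h library 2, the 12 h log2 fold change was 0.70 and passed (adjusted p = 0.0235). With 1 library left out in turn, it ranged between 0.16, without GSI 12 h library 3, and 0.70. The 12 h result thus depended on which libraries entered. The counts listed under the divergent transcript BTG1-DT rose to 107, 73.4 and 134 normalised counts in GSI 12 h libraries against 32.7, 28.97 and 43.3 in DMSO 12 h libraries, a log2 fold change of 1.53 ± 0.33 (adjusted p = 0.00832). It had 201, 87.6 and 134 in GSI 48 h libraries against 34.9, 49.4 and 64.0 in DMSO 48 h libraries, a log2 fold change of 1.46 ± 0.33 (adjusted p = 0.0228). BTG1-DT was named after its values were seen. If counting ignored strand, its reads could be mixed with those of BTG1, so that these values may not belong to BTG1-DT alone.

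SESN3, a sestrin that restrains mTORC1 and is induced by FOXO factors, passed at 12 h by a small margin. It had 1018, 933 and 865 normalised counts in GSI 12 h libraries against 717, 642 and 487 in DMSO 12 h libraries. Its counts after 48 h were 1944, 1177 and 1044 with GSI against 1070.15, 1082 and 908 with DMSO. The groups were separate at 12 h and overlapped at 48 h, where GSI library 1 stood above the rest. The log2 fold change was 0.62 ± 0.21 (adjusted p = 0.0464) at 12 h and 0.39 ± 0.21 (adjusted p = 0.214) at 48 h. At 12 h, edgeR's quasi-likelihood test on the recovered reads gave an adjusted p of 0.0523. The limma call was lost without DMSO 12 h library 2 or 3, any GSI 12 h library, or any DMSO 48 h library, at adjusted p between 0.0539 and 0.151. It was lost as well without both GSI libraries numbered 2 (adjusted p = 0.0710). No filter (0.0679), upper-quartile scaling (0.0584) and a constant prior (0.0800) also removed it, the values being limma's adjusted p.

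KLF2 is a FOXO1 target that keeps T cells quiescent and drives homing receptors such as S1PR1. It had 522, 1155 and 853 normalised counts in GSI 12 h libraries against 745, 516 and 652 in DMSO 12 h libraries. Its 48 h values were 798, 1094 and 1347 with GSI against 704, 562 and 743 with DMSO. The groups overlapped at 12 h, where GSI library 1 was among the lowest of all, and were separate at 48 h. Neither difference passed, with log2 fold changes of 0.35 ± 0.26 (adjusted p = 0.360) at 12 h and 0.67 ± 0.26 (adjusted p = 0.111) at 48 h. DESeq2 on the recovered reads gave an adjusted p of 0.0433 at 48 h.

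TXNIP, which binds thioredoxin and limits glucose uptake, is listed at 0 in all 12 libraries under the identifier that the symbol table gives it. That table belongs to a later annotation than hg19, and a gene whose identifier changed between annotations would be listed this way. The level of TXNIP was therefore not measured here.

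**Figure D2:**
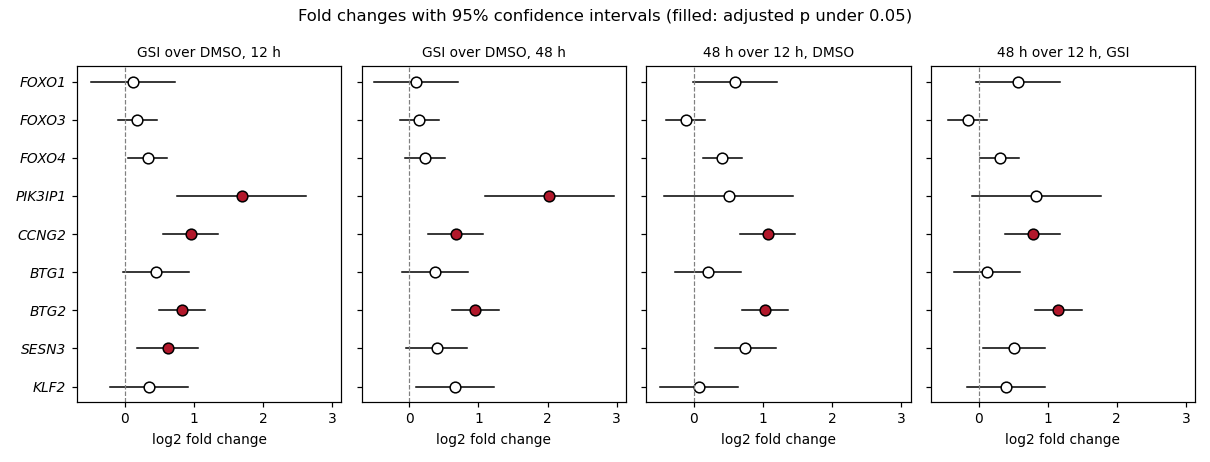
Log2 fold changes on the log2(value + 1) scale (horizontal axes) of the 9 genes in 4 comparisons, with 95% confidence intervals from limma; filled points have an adjusted p under 0.05 over all genes. PIK3IP1, CCNG2 and BTG2 are filled in both comparisons of GSI with DMSO, and CCNG2 and BTG2 in both comparisons of 48 h with 12 h.

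Over time, CCNG2 and BTG2 were higher at 48 h than at 12 h under either treatment. These comparisons use the same libraries as those of treatment, so the sets of values are not independent. At 48 h against 12 h in DMSO libraries, 2 of the 9 genes passed as higher, where 2.03% of all genes did, and none passed as lower, where 2.51% of all genes did (4.53% in either direction). In GSI libraries it was again 2 of 9, against 1.62% of all genes as higher, 2.37% as lower and 3.98% in either direction. The median log2 fold change of the 9 was 0.50 in DMSO and 0.51 in GSI libraries, beside -0.0019 and -0.0014 over all genes. Separate groups, with every 48 h library above every 12 h library, were found for 5 genes in DMSO and 4 in GSI libraries (11.2% and 9.94% of all genes).

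CCNG2 averaged 6568 ± 868 normalised counts in DMSO 48 h and 3156 ± 631 in DMSO 12 h libraries, a log2 fold change of 1.07 ± 0.18 (adjusted p = 0.00499). In GSI libraries it averaged 10496 ± 1637 at 48 h and 6181 ± 1624 at 12 h, a log2 fold change of 0.78 ± 0.18 (adjusted p = 0.0304). The GSI call was lost without GSI 12 h library 1 or 2 or GSI 48 h library 1 or 3 (adjusted p between 0.0644 and 0.140). It was lost as well without both GSI libraries numbered 2 (adjusted p = 0.125). A constant prior (0.0873) and a fit of only the groups compared (0.0735) also removed it, the values being limma's adjusted p. BTG2 averaged 5092 ± 407 in DMSO 48 h and 2495 ± 211 in DMSO 12 h libraries, a log2 fold change of 1.03 ± 0.16 (adjusted p = 0.00216). In GSI libraries it averaged 10053.5 ± 2486 at 48 h and 4453 ± 645 at 12 h, a log2 fold change of 1.16 ± 0.16 (adjusted p = 0.000715). For both genes the 4 groups fell in the same order, lowest in DMSO 12 h, then GSI 12 h and DMSO 48 h, which overlapped, and highest in GSI 48 h. The GSI 48 h libraries did not overlap any other group for either gene.

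The library numbers paired 48 h with 12 h libraries of a treatment, and a fit with the replicate number within treatment as a block changed several calls. In DMSO libraries 4 genes then passed as higher, where 13.9% of all genes did, with FOXO4 (log2 fold change 0.41, adjusted p = 0.00108) and SESN3 (0.74, adjusted p = 0.000529) added to CCNG2 and BTG2. Without the block these had adjusted p of 0.105 and 0.0587. In GSI libraries 6 passed as higher, where 12.6% of all genes did, with FOXO4 (0.31, adjusted p = 0.00707), PIK3IP1 (0.83, adjusted p = 0.00623), SESN3 (0.51, adjusted p = 0.00568) and KLF2 (0.40, adjusted p = 0.0315) added. Without the block their adjusted p were 0.270, 0.383, 0.227 and 0.513. With the replicate number as a block over all libraries, 4 genes passed as higher in DMSO (5.31% of all genes) and 3 in GSI libraries (4.13% of all genes). FOXO1 had positive log2 fold changes of 0.60 ± 0.28 (adjusted p = 0.299) in DMSO and 0.57 ± 0.28 (adjusted p = 0.356) in GSI libraries and passed in none of these fits. FOXO3 was the 1 gene of the 9 with values below 0 over time, -0.12 (adjusted p = 0.753) in DMSO and -0.16 (adjusted p = 0.629) in GSI libraries.

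Whether the GSI effect differed between 48 h and 12 h was tested directly. None of the 9 genes passed (0% of all genes did), and none had an unadjusted p under 0.05. The smallest unadjusted p was 0.297, for CCNG2, whose log2 effect at 48 h minus that at 12 h was -0.28 with a 95% interval of -0.84 to 0.28. For PIK3IP1 the difference was 0.33 with an interval of -0.99 to 1.65, so that a large change of effect in either direction would have passed unseen. For BTG2 it was 0.13 with an interval of -0.35 to 0.60. DESeq2 called 61 genes of the whole table, none of them among the 9, while edgeR and limma called 0. In limma 875 of the 19281 genes had an unadjusted p under 0.05. With the replicate block 0.207% of all genes passed, and with the block within treatment 6.1%, again with none of the 9 among them.

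**Figure D3:**
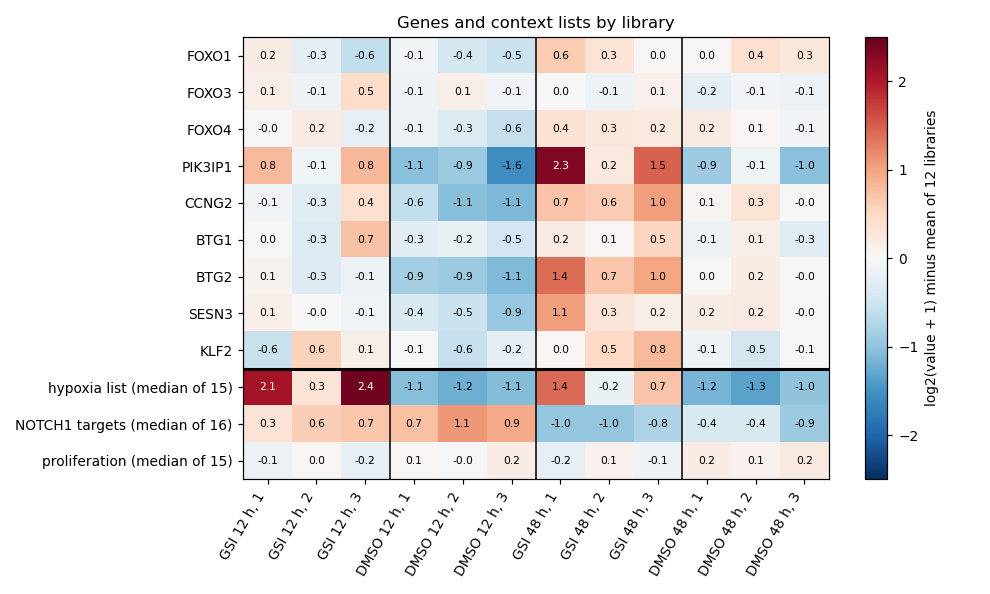
Log2(value + 1) of the 9 genes minus its mean over the 12 libraries (colour and printed numbers), with the medians of the hypoxia, NOTCH1 target and proliferation lists below the black line; columns are libraries, grouped as GSI 12 h, DMSO 12 h, GSI 48 h and DMSO 48 h. At both times PIK3IP1, FOXO3, CCNG2, BTG1, BTG2 and the hypoxia list are lower in the GSI library numbered 2 than in numbers 1 and 3. This does not hold for FOXO1, FOXO4, SESN3 or KLF2, and KLF2 in GSI 12 h is highest in number 2.

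Patterns across the 12 libraries differed between the 9 genes, as the plot of levels by library shows. CCNG2 and BTG2 had the most similar patterns (Pearson r = 0.93, n = 12 libraries that share 4 groups), followed by BTG2 with SESN3 (r = 0.92) and FOXO4 with SESN3 (r = 0.89). After the group means were removed, the CCNG2–BTG2 value was 0.30, while PIK3IP1 with BTG2 (0.93) and FOXO3 with BTG1 (0.90) were the closest. Within groups the values for KLF2 ran between -0.67 (with BTG2) and 0.19 (with FOXO4), and FOXO3 with FOXO4 had -0.58. Of all kept genes with a symbol (16494 compared), those most like CCNG2 over the 12 libraries included LBH (r = 0.99) and PABIR3 (0.97). Those most like BTG2 were LRP10, CYTH1 and TRAJ1 (0.98 each), and those most like PIK3IP1 were GSDMB (0.97), ADGRB1 (0.97) and MYO15B (0.96). For SESN3 they were HELZ2 (0.97), SOAT2 (0.96) and ELF4 (0.96), and for FOXO4 SEMA4B (0.96), CLIP2 (0.96) and ELF4 (0.95). For BTG1 they were GCC2 (0.97), NEMP1 (0.97) and CNOT6L (0.96), the last a catalytic subunit of CCR4–NOT. For FOXO3 they were SKIC3, NAP1L1 and RNF113A (0.94 each), for FOXO1 SANBR, TOX-DT and KCNA6 (0.90 each), and for KLF2 TP53I3 (0.91), PEX11G (0.88) and GRAMD2A (0.86). These are the highest of many values and are descriptions of 12 libraries that share groups and depth.

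Of 23 kept genes known as other FOXO targets, 2 rose and 1 fell with GSI at 12 h, and none rose and 2 fell at 48 h. Over all genes, 10.1% rose and 11.4% fell at 12 h, and 4.33% rose and 5.35% fell at 48 h. The median log2 fold change of the 23 was 0.18 at 12 h and 0.13 at 48 h. GABARAPL1, an autophagy gene, rose at 12 h (log2 fold change 0.60, adjusted p = 0.00968), as did CDKN1B (0.44, adjusted p = 0.0348), which encodes the cell-cycle inhibitor p27. CDKN1A, which encodes the inhibitor p21, fell, with 143, 223 and 159.8 normalised counts in GSI 12 h libraries against 409, 352 and 238 in DMSO 12 h libraries. Its log2 fold change was -0.91 (adjusted p = 0.0262) at 12 h and -0.998 (adjusted p = 0.0339) at 48 h. CAT, encoding catalase, fell at 48 h (-0.30, adjusted p = 0.0415). At 48 h edgeR called 2 of the 23 as higher and 3 as lower. At an unadjusted p under 0.05, 4 were higher and 5 lower, beside 5768 of the 19281 genes in either direction. With the replicate block 3 of the 23 were called higher and 4 lower, against 11.8% of all genes higher and 15.5% lower. Over time, 3 of the 23 passed in DMSO libraries (TRIB1 1.47 and GABARAPL1 0.51 higher, GADD45A -0.79 lower). In GSI libraries 2 passed (TRIB1 2.34 higher, TNFSF10 -1.72 lower), all these being log2 fold changes. With the block within treatment it was 12 in DMSO and 16 in GSI libraries, where that fit called 29.2% and 28.8% of all genes. Without that block 4.53% of all genes passed in DMSO and 3.98% in GSI libraries.

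The PI3K–AKT axis itself, with 23 kept genes, had 1 higher and 3 lower with GSI at 12 h (10.1% and 11.4% of all genes). The lower genes included PHLPP2, a phosphatase acting on AKT (log2 fold change -0.56, adjusted p = 0.00639), and PDPK1, the kinase that activates AKT (-0.31, adjusted p = 0.0198). At 48 h limma and edgeR called none of the 23, DESeq2 1 and the replicate block 5, and 5 had an unadjusted p under 0.05. Of the 19281 genes, 5768 had an unadjusted p under 0.05 at 48 h, and limma called 9.68%. The replicate block called 27.3% of all genes at that time. Over time, SGK1, a kinase related to AKT, rose in DMSO (1.15) and in GSI libraries (0.63), and INPP5D, a lipid phosphatase, fell in both (-0.53 and -0.74). With the block within treatment 8 of the 23 passed in DMSO and 13 in GSI libraries, against 3 and 4 without it. That fit called 29.2% of all genes in DMSO and 28.8% in GSI libraries, against 4.53% and 3.98% without the block.

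Of 18 genes whose products modify or move FOXO proteins, 15 had fold changes below 0 at 12 h and 14 at 48 h, with a median log2 fold change of -0.19 each time. STK4, a kinase that phosphorylates FOXO under stress, was the 1 gene that passed at 12 h. It was higher (log2 fold change 0.26, adjusted p = 0.0216), as were 10.1% of all genes. At an unadjusted p under 0.05, 3 of the 18 were higher and 6 lower at 12 h, beside 7098 of the 19281 genes. At 48 h limma and edgeR called none of the 18. There 1 was higher and 5 lower at an unadjusted p under 0.05, beside 5768 of the 19281 genes in either direction. DESeq2 called 1 higher and 1 lower there, and the replicate block 1 higher and 5 lower (11.8% and 15.5% of all genes). Of 12 CCR4–NOT genes, the machinery through which the BTG proteins act, limma, edgeR and DESeq2 called none with GSI at either time. An unadjusted p under 0.05 was found for 1 at 12 h and 2 at 48 h, beside 7098 and 5768 of the 19281 genes. With the replicate block 2 of the 12 were called lower at 48 h, where 15.5% of all genes were. Of 13 pocket protein and DREAM genes, which repress cell-cycle genes in quiescent cells, E2F4 fell at 12 h (-0.51, adjusted p = 0.00512). It also fell at 48 h (-0.38, adjusted p = 0.0310), and TFDP1 fell at 12 h (-0.32, adjusted p = 0.0394). Over all genes, 11.4% fell at 12 h and 5.35% at 48 h.

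Of 15 kept relatives by family, 4 rose at 12 h (FOXO6, CCNG1, KLF7 and CCNI) and 1 fell (TOB2, an antiproliferative relative of the BTG genes, log2 fold change -0.50, adjusted p = 0.0110). Over all genes, 10.1% rose and 11.4% fell at that time. CCNG1, the closest relative of CCNG2 and a known p53 target, had a log2 fold change of 0.82 (adjusted p = 0.0104) at 12 h. At 48 h FOXO6 alone passed in limma, where 4.33% of all genes were higher and 5.35% lower. With the replicate block 4 of the 15 were higher and 1 lower (11.8% and 15.5% of all genes).

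Of 10 genes of lymphocyte homing linked to KLF2, 1 passed as higher with GSI at each time. So did 10.1% of all genes at 12 h and 4.33% at 48 h. S1PR1, a receptor for exit from lymphoid tissue, had log2 fold changes of 0.51 (adjusted p = 0.217) at 12 h and 0.17 (adjusted p = 0.717) at 48 h. ITGB7, an integrin of gut homing, rose at 12 h (0.60, adjusted p = 0.0423), and CCR7, a chemokine receptor of lymph node entry, rose over time in DMSO (0.82, adjusted p = 0.00306) and in GSI libraries (0.82, adjusted p = 0.00279). With the replicate block 4 of the 10 were called higher at 48 h against 1 without it, beside 11.8% and 4.33% of all genes.

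Of 8 kept genes linked to TXNIP and glucose sensing, the glucose transporters SLC2A3 (log2 fold change 2.22, adjusted p = 0.00332) and SLC2A1 (0.76, adjusted p = 0.0322) rose at 12 h. SLC2A3 had 21480.0, 7967 and 21732 normalised counts in GSI 12 h libraries against 4029, 2887 and 3171 in DMSO 12 h libraries, with library 2 again lowest of the GSI group. TXNRD1 (-0.33), encoding thioredoxin reductase, and MLX (-0.25) fell at 12 h. Over all genes, 10.1% rose and 11.4% fell at that time. At 48 h limma called none of the 8, of which 4 had an unadjusted p under 0.05, beside 5768 of the 19281 genes. EdgeR called 1 of the 8 and the replicate block 3, where that block called 27.3% of all genes. The proliferation list, with 15 genes, had 13 fold changes below 0 at 12 h and 15 at 48 h, with median log2 fold changes of -0.14 and -0.24. CCNE2 passed as lower at both times (-0.52 and -0.56 on the log2 scale) and RRM2 at 48 h (-0.41). At 48 h 6 of the 15 had an unadjusted p under 0.05, all lower. Of the 19281 genes, 5768 had such a p in either direction. With the replicate block 5 of the 15 were called lower, as were 15.5% of all genes. The part of this in the results above was not tested.

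**Figure D4:**
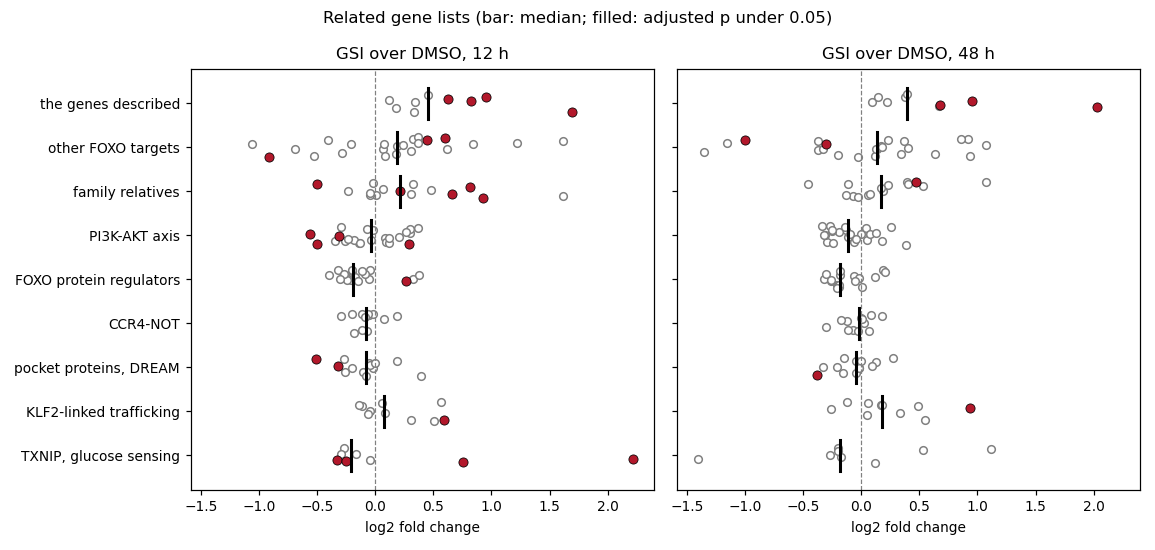
Log2 fold changes of GSI over DMSO at 12 h (left) and 48 h (right) for the 9 genes and 8 lists of related genes; each point is 1 gene, black bars are medians and filled points have an adjusted p under 0.05. The 9 genes have medians of 0.46 and 0.39, beside 0.18 and 0.13 for other FOXO targets.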

How the data were processed

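The authors used HTSeq 0.6.1, TopHat2 2.0.10, FastQC 0.10.1 and DESeq2 with the build hg19, per the submitters' processing notes. The sources used here do not give the role or settings of each tool, the annotation or the use of strand. A signal per gene was deposited, the read count divided by a library size factor. Whole reads were recovered from their steps (100% of values whole within 0.01) and used for edgeR 4.0.16 and DESeq2 1.42.0. Log2(value + 1) was tested in R 4.3.3 with limma 3.58.1, using a trended prior and 1 mean per group over all 12 libraries. Genes had to reach 10 in 3 or more libraries, Benjamini-Hochberg adjustment ran over all 19281, and the threshold was 0.05. Every adjusted p is limma's unless another tool is named, ± after a fold change is its SE, and the log2(value + 1) scale understates changes of low genes. Only limma's pairwise tests were checked on simulated counts, with independent libraries and the same dispersion for every gene. These data differ from that, since same-numbered libraries deviated together. EdgeR, DESeq2, the fits with a block and the change of effect were not checked in this way.

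Symbols were matched to 39007 of 62069 identifiers. Exon lengths are of GENCODE 29 and sequences of RefSeq. The 10 genes and the lists of related genes were chosen with earlier results of these data known. All 10 were named throughout, with the 2 called genes of smallest p in each direction from each list and the 3 genes most like each of the 10. Other genes (among them S1PR1, CCNI, BTG1-DT, FOXO3B and SESN2) were added after their values were seen. A few genes that these rules name are not reported here. SESN1, SESN2, KLF6, RBL2, ARRDC4 and IL7R sit in 2 lists each. Same-numbered libraries deviated together between 48 h and 12 h (correlations of deviations from group means over genes of 0.545 to 0.612 in DMSO and 0.400 to 0.545 in GSI). Between treatments at 48 h they did so weakly (0.103 to 0.157), but each GSI library correlated most with the DMSO library of its number. The numbers were therefore taken as pairs in these comparisons. At 12 h GSI library 3 correlated more with DMSO library 1 (0.139) than with DMSO library 3 (0.068), so they were not. The pairing comes from these correlations, not from the labels. Alternatives varied the test, pseudocount, filter, scaling, prior, libraries in the fit and replicate block, and left out libraries.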

Additional observations from a re-analysis of the deposited data

How the results depend on the processing

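Among 1093 fold changes of the 9 genes under alternatives, 1010 kept direction and call, 36 lost a call, 20 gained one and 27 reversed, none of the reversed being called. The number of the 9 genes called at 12 h was 4 and ranged between 2 and 5 when 1 library was left out, falling to 2 without DMSO 12 h library 3, GSI 12 h library 1 or GSI 12 h library 3. At 48 h it was 3, 1 with a constant prior, and 1 to 3 with 1 library left out (1 without DMSO 48 h library 1 or 3 or GSI 48 h library 1 or 3). In DMSO over time it was 2, 4 with DESeq2, 4 with the replicate block, 4 with the block within treatment, and 2 to 3 with 1 library left out. In GSI over time it was 2, 1 with a constant prior, 1 with only the groups compared, 6 with the block within treatment, 1 without both GSI libraries numbered 2, and 1 to 2 with 1 library left out. At 12 h the numbers were not taken to pair treatments (correlations 0.068 to 0.272), since GSI library 3 was closer to DMSO library 1 than to DMSO library 3. With the replicate block 5 genes were called at 12 h, FOXO4 added, where that fit called 36.1% of all genes. At 48 h the block left the count at 3, while it called 27.3% of all genes.

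With 1 library left out, log2 fold changes ranged as follows where they reversed: FOXO1 -0.084 to 0.32 at 12 h and -0.060 to 0.25 at 48 h, KLF2 -0.068 to 0.20 in DMSO over time, and BTG1 -0.12 to 0.42 in GSI over time. For the change of effect they were FOXO1 -0.22 to 0.18, FOXO3 -0.18 to 0.11, FOXO4 -0.21 to 0.0053, PIK3IP1 -0.15 to 0.88, BTG1 -0.33 to 0.21 and BTG2 -0.059 to 0.29. Upper-quartile scaling turned the change of effect to 0.011 for FOXO1 and 0.0055 for FOXO3. Leaving out both GSI libraries numbered 2 gave -0.0091 for BTG1 in GSI over time and 0.0086 for FOXO4 in the change of effect. The cause was not tested. Upper-quartile scaling moved the median of all genes by -0.095 at 12 h and -0.057 at 48 h. Over all genes, the main numbers called were 4144 at 12 h, 1866 at 48 h, 874 in DMSO and 768 in GSI over time and 0 for the change of effect. With the replicate block they were 6951, 5261, 2368, 1941 and 40, and with the block within treatment 5622, 5544 and 1177 for the last 3. DESeq2 called 3242 at 48 h, 1560 and 1261 over time and 61. A constant prior gave 613 at 48 h and 501 in DMSO over time, no filter 1075 at 48 h, and only the groups compared 2607 at 12 h and 477 in GSI over time. With 1 library left out they ranged over 1599 to 5662, 119 to 3036, 353 to 1066, 443 to 737 and 0 to 4. Of the 9 genes, depth limits FOXO1 most, with 13 to 57 reads per library.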

Other observations

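SESN2, the stress-induced relative of SESN3, stood apart in single libraries. It had 1535, 1641 and 10363 normalised counts in GSI 12 h libraries against 826, 1105 and 998 in DMSO 12 h libraries, and 1352, 1256 and 5587 in GSI 48 h libraries against 919, 1053 and 1058 in DMSO 48 h libraries. Every GSI library exceeded the DMSO libraries of its time, and number 3 held far more than the others at both times. The log2 fold changes, 1.61 ± 0.64 (adjusted p = 0.0849) and 1.07 ± 0.64 (adjusted p = 0.277), did not pass. SESN1 had 0.32 (adjusted p = 0.127) and 0.17 (adjusted p = 0.443).

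FOXO3B had 397, 381 and 387 normalised counts in GSI 12 h libraries against 477, 540 and 477 in DMSO 12 h libraries, with no overlap and a log2 fold change of -0.36 ± 0.12 (adjusted p = 0.0479). FOXO3 had a positive value in the same comparison that did not pass. FOXO3B was also lower at 48 h than at 12 h in DMSO libraries (-0.48 ± 0.12, adjusted p = 0.0362). The difference between FOXO3B and FOXO3 was not tested, and the share of reads that could belong to either gene is not known.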
